A study of Homo sapiens with 10 samples.

Results

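The genes described here are the olfactory receptor genes of chromosomes 1 and 11, taken from the protein-coding genes of GRCh38 by symbol: OR, 1 or 2 digits, 1 or 2 letters, then digits. The rule found 232 genes, of which 229 of 19839 protein-coding genes had a place on the main run of their chromosome, 61 on chromosome 1 and 168 on chromosome 11. The other 3, OR8U8, OR8U9 and OR9G9, were listed apart from that run and were assigned no peaks. The same symbol pattern held 158 genes on other chromosomes, and 36 taste, trace amine and vomeronasal receptor genes served as a further comparison.

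H4R3me2s, the symmetric dimethylation of arginine 3 on histone H4 that PRMT5 writes, was mapped by chromatin immunoprecipitation and sequencing (ChIP-seq) in SH-SY5Y, a human neuroblastoma cell line. The Naive libraries (n = 3) came from undifferentiated cells. The BDNF libraries (n = 3) came from cells differentiated with retinoic acid (10 µM, 6 days) followed by the neurotrophin BDNF (50 ng/ml, 4 days), and the BDNF+Dox libraries (n = 3) from cells given the same plus 1 µg/ml doxycycline for 3 days, which induced α-synuclein through a Tet-on system. All groups grew in zeocin and 10% fetal calf serum, with 3% serum during retinoic acid in BDNF and BDNF+Dox only. The control for all 9 was 1 Input library without antibody. This Input is listed without retinoic acid, BDNF or doxycycline, so BDNF and BDNF+Dox had no Input of their own treatment. No group received doxycycline without the induced protein, so the drug and the protein cannot be told apart. The labels do not say that the replicates were separate cultures, and a p-value here therefore covers only the spread among them, which may be technical. Peak lists measure no expression, so neither the identity of the cells nor the activity of the receptors was checked.

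Olfactory receptors are G protein-coupled receptors of the nasal epithelium, where each sensory neuron expresses a single allele of a single receptor and silences the rest. Odorant binding activates the G protein subunit GNAL and the adenylyl cyclase ADCY3, and the resulting cyclic AMP opens a cation channel. The genes stand in tandem clusters that are AT-rich and packed in heterochromatin in most cell types. Class I receptors, families 51 to 56, resemble those of fish, and class II receptors hold the remaining families.

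The RefSeq promoter table (GRCh38.p14) held 191 promoters, each from 250 bp before to 50 bp after a transcription start, for 186 of the 229 genes, and 43 genes had no entry. No promoter of the 191 overlapped a peak in any of the 9 libraries, beside 29 of 22156 promoters (0.131%) of all protein-coding genes in the table. The receptor promoters had a median GC content of 37.3%, and all 22156 had 62.3%. The motif TAATTA, a homeodomain site of the kind LHX2 binds, searched on both strands, lay in 47 of the 191 receptor promoters (24.6%) and in 3.39% of all. The motif CCCNNGGG, the site of the EBF factors first known as Olf-1, also searched on both strands, lay in 18 of 191 (9.42%) and in 21.7% of all. Receptor promoters of other chromosomes had these motifs in 18.8% and 6.02%. Among genes with a library peak near them, 21 of 79 promoters (26.6%) held TAATTA, and among those without, 26 of 112 (23.2%) did.

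The 250 bases before a listed transcription start are shown for 4 of the genes named below. OR13G1 had peaks in all BDNF libraries and OR10D3 in all BDNF+Dox libraries, and OR6K3 had the peak of highest fold. OR6N1 had a q of 0.496 in the authors' deposited table of BDNF+Dox over BDNF. The smallest q at a receptor gene in that authors' deposited table, 0.486, was at OR9Q2, which is not shown. For OR13G1, OR10D3, OR6K3 and OR6N1 the stretches lie at chr1:247679740-247679989 (minus strand), chr11:124183095-124183344 (plus strand), chr1:158720721-158720970 (minus strand) and chr1:158772196-158772445 (minus strand). Capitals mark TAATTA in OR13G1 and OR6K3 and CCCNNGGG in OR6N1, and OR10D3 held neither motif.
OR13G1: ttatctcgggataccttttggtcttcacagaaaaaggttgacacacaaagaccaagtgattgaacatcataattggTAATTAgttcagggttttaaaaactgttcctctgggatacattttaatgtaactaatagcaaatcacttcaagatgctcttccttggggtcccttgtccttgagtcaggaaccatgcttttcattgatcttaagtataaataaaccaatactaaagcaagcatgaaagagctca
OR10D3: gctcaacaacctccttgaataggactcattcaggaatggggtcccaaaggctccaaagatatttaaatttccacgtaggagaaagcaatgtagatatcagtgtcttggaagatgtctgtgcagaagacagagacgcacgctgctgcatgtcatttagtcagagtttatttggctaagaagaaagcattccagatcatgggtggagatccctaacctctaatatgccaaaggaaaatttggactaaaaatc
OR6K3: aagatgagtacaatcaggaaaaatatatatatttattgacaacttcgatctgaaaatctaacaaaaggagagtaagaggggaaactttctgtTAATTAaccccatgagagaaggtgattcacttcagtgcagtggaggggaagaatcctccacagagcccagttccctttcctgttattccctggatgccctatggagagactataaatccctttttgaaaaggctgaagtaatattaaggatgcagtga
OR6N1: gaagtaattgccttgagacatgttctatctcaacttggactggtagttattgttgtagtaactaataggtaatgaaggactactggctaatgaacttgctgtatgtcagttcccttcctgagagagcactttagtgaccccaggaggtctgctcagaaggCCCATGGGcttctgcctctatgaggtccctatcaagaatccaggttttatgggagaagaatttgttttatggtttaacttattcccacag
A match to these letters is a description of the sequence only, and 4 picked genes do not reflect the shares of promoters given above. The peaks of OR13G1 lay beyond the other end of the gene, and those of OR10D3 lay more than 2 kb upstream of the stretch shown.

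Peaks at the receptor genes had the same median height as all library peaks. Each gene was given a window of its span and 5 kb on each side, and a peak counted with an overlap of 1 bp or more. The 9 libraries together placed 141 peaks in these windows. At their summits the peaks were 5 to 11 fragments high with a median of 7, which was also the median of all 67301 library peaks. Their fold over local background, the authors' value per peak, ranged from 2.44 to 4.92 with a median of 3.49, beside 3.47 over all peaks. None of the 141 had a q-value of 0.05 or less, beside 195 of all 67301 (0.290%), and the smallest was 0.200, near OR14C36. A −log10 p of 5 or more was reached by 11 (7.80%), against 10.5% of all library peaks. Sequencing depth differed little, at 17164402 to 18928589 reads per ChIP library, whereas the number of peaks per library ran from 4505 in BDNF replicate 2 to 12135 in Naive replicate 1.

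A peak in at least 1 library was found in the windows of 92 of 229 receptor genes (40.2%), against 40.8% of all protein-coding genes. Receptor genes are short, with a median window of 12901 bp against 34460 bp over all genes. Among genes whose windows lay between the receptors' quartiles of 10948 and 17954 bp, 44 of 117 receptor genes (37.6%) had a peak, against 12.5% of all 4204 such genes and 11.3% of the 4010 that are not olfactory receptors. Leaving out any library in turn gave 32.5% to 37.6% for the receptors and 10.7% to 11.8% for all genes of like length. Olfactory receptor genes of other chromosomes with windows of that length had a peak in 28 of 77 (36.4%), and other chemosensory receptor genes in 7 of 28. A comparison at like length and like promoter GC was void, since under 80% of the genes of like length had a promoter entry.

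Few receptor genes had peaks in several libraries. Of the 229 genes, 137 had none, 56 had a peak in 1 library, 22 in 2, 10 in 3, 1 in 4, 2 in 5 and 1 in 6. The 14 genes with peaks in 3 or more libraries (6.11%) stand beside 14.1% of all protein-coding genes. Windows over all genes are longer, and no match for length was made here, so the 2 shares are not alike in kind. Merged over the libraries, the peaks in the windows formed 131 regions, of which 122 came from a single library, 8 from 2 and 1 from 3. The regions shared by 2 or more libraries were 6.87% of those in receptor windows and 2.38% of all 65628 regions.

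By group, receptor windows held most peaks in the Naive libraries. The Naive libraries had 32, 13 and 21 peaks in the merged windows of 3.57 Mb (22 ± 9.54, SD, n = 3). The BDNF libraries had 19, 10 and 11 (13.3 ± 4.93, n = 3). The BDNF+Dox libraries had 20, 11 and 4 (11.7 ± 8.02, n = 3). The 3 ranges overlapped, so the counts did not separate the groups beyond the spread between libraries. The ratio of means was 0.606 for BDNF over Naive and 0.875 for BDNF+Dox over BDNF. With the 4505 strongest peaks of each library, BDNF over Naive was 1.097 instead, so its direction turned. BDNF+Dox over BDNF was 0.563 without BDNF+Dox replicate 1, 1.16 without BDNF+Dox replicate 3, 1.11 without BDNF replicate 1 and 1.29 with gene spans alone, so its direction also turned.

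Relative to all peaks of the library, the BDNF+Dox libraries were lowest. Per 1000 peaks, the Naive libraries had 2.64, 2.23 and 2.68 in receptor windows (2.51 ± 0.249, n = 3), and the BDNF+Dox libraries had 1.85, 1.59 and 0.635 (1.36 ± 0.641, n = 3). All 3 Naive values lay above all 3 BDNF+Dox values. The BDNF libraries, at 3.11, 2.22 and 1.61 (2.31 ± 0.757, n = 3), overlapped both. BDNF+Dox over Naive was 0.541, and 0.685 without BDNF+Dox replicate 3. Of 7 alternatives in windows, thresholds and peak numbers, 5 kept the Naive and BDNF+Dox ranges apart. Apart from a −log10 p of 3 or more, these 5 changed only the window or the overlap rule and recounted many of the same peaks. The ranges overlapped with equal peak numbers (ratio 0.806) and among peaks with a −log10 p of 5 or more (ratio 1.43). The remainder of the receptor clusters, outside the windows, showed the same order, at 2.79 ± 0.595 (Naive), 1.97 ± 0.219 (BDNF) and 1.03 ± 0.657 (BDNF+Dox) per 1000 peaks (n = 3 each). In the 1 Mb flanks of the clusters the values were 7.22 ± 1.25, 6.98 ± 2.37 and 6.01 ± 1.23. Windows of the other protein-coding genes of both chromosomes had the reverse order, at 55.8 ± 2.02, 63.7 ± 6.77 and 67.6 ± 4.36. There all 3 Naive values lay below all 3 BDNF+Dox values. Receptor windows of other chromosomes had 1.46 ± 0.433, 0.933 ± 0.520 and 1.02 ± 0.381, and their groups overlapped. The total number of peaks differs between the libraries, and its part in these differences was not tested. Whether Naive and BDNF+Dox often separate per 1000 peaks in other sets of genes was not counted. No test was run on these values, and an exact permutation test of 3 libraries against 3 cannot go below a p of 0.1. Genes with a peak in at least 1 library of the group numbered 57 in Naive (24.9%, against 23.8% of all genes), 37 in BDNF (16.2%, against 20.5%) and 36 in BDNF+Dox (15.7%, against 26.1%). The shares of all genes come from longer windows, and no match for length was made by group.

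**Figure D1:**
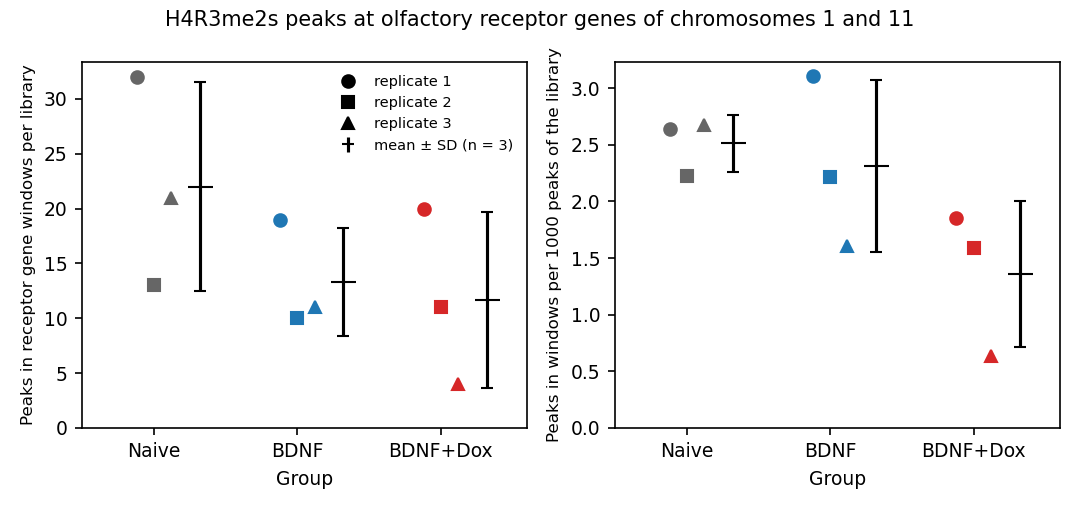
Number of H4R3me2s peaks in the merged windows of the 229 receptor genes in each library (left) and the same per 1000 peaks of that library (right); symbols are replicates and bars the mean ± SD of 3. The counts of the groups overlap, whereas per 1000 peaks the 3 Naive libraries (2.23 to 2.68) sit above the 3 BDNF+Dox libraries (0.635 to 1.85). Whether other sets of genes often separate in this way was not counted.

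Peaks were denser in receptor windows than along the 2 chromosomes, and about as dense in the remainder of the clusters. Divided by the density over all usable 1 Mb bins of chromosomes 1 and 11, the density in receptor windows was 2.15, 1.82 and 2.22 in the Naive libraries. It was 2.57, 1.69 and 1.24 in BDNF and 1.49, 1.21 and 0.447 in BDNF+Dox. The mean ratio was 1.65 ± 0.640 (SD, n = 9 libraries), above 1 in 8 of 9, and BDNF+Dox replicate 3 was the exception. Without that library the mean ratio was 1.80. Against the remainder of the clusters the ratio was 1.06 ± 0.351 and exceeded 1 in 4 of 9 libraries. Against the flanks it was 1.85 ± 0.561, above 1 in 8 of 9. Against the windows of the other protein-coding genes of both chromosomes it was 1.85 ± 0.787, above 1 in 8 of 9. Against receptor windows of other chromosomes it was 1.48 ± 0.676, above 1 in 7 of 9. The ratio was 1.75 ± 0.851 on chromosome 1 and 1.75 ± 0.657 on chromosome 11, each against its own chromosome.

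**Figure D2:**
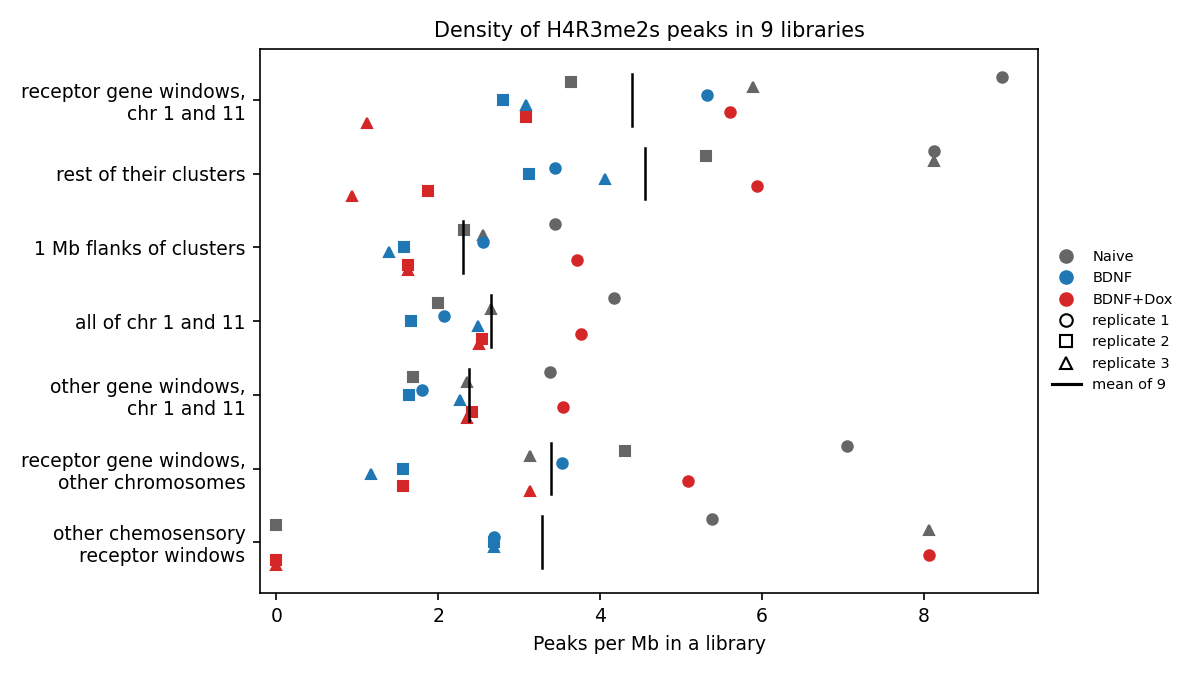
Peaks per Mb in each of the 9 libraries (colour: group; symbol: replicate; bar: mean of 9) for receptor windows and 6 comparison compartments. Receptor windows (mean 4.39 per Mb) and the remainder of their clusters (4.55) lie above the flanks (2.31) and above all of chromosomes 1 and 11 (2.65).

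Summed over the libraries, peaks upstream, within and downstream of the genes had similar densities. For the 186 genes with a known strand, pairs of a gene and a peak came to 4.42 per Mb and library in the 5 kb upstream (37 pairs), 4.78 in the gene span (60 pairs) and 5.14 in the 5 kb downstream (43 pairs). Sides were set by the gene span, and a listed start can lie inside it, as at OR6N1. A pair in the span can therefore lie upstream of the start. A peak near more than 1 gene gave a pair for each. The BDNF libraries had 3, 1 and 3 pairs upstream and 8, 5 and 5 downstream, more downstream in all 3. The BDNF+Dox libraries had 6, 4 and 2 upstream and 5, 2 and 1 downstream, more upstream in all 3. In each BDNF+Dox library 1 upstream pair was that of OR10D3, and without it upstream did not exceed downstream in all 3. In each BDNF library 1 downstream pair was that of OR13G1, and without it downstream still exceeded upstream in all 3. The Naive libraries had 10, 3 and 5 upstream and 10, 1 and 6 downstream. The difference between the groups in side was not tested. Class I and class II receptors had similar densities, 4.10 and 4.48 peaks per Mb and library. Of the 55 class I genes 27 (49.1%) had a library peak, and of the 174 class II genes 65 (37.4%). Class I windows held 7, 0 and 5 peaks for Naive, 7, 3 and 4 for BDNF and 2, 2 and 1 for BDNF+Dox. Class II windows held 25, 13 and 16 for Naive, 12, 7 and 7 for BDNF and 18, 9 and 3 for BDNF+Dox. In class I all 3 BDNF libraries lay above all 3 BDNF+Dox libraries, in class II all 3 Naive libraries lay above all 3 BDNF libraries, and the other pairs of groups overlapped. These counts are not scaled to the total peaks, which ran from 5839 to 12135 in Naive, 4505 to 6850 in BDNF and 6304 to 10807 in BDNF+Dox. How often other sets of genes separate in this way was not counted.

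The genes formed 16 clusters of 2 or more, with neighbours up to 100 kb apart, which held 220 genes. The 9 others stood alone, and 8 of these had no library peak. Among the 8, OR4F5, OR4F29 and OR4F16 lie in the first 1 Mb of chromosome 1, which had no peak in any library. Whether reads could be placed there was not checked. The 9 clusters with 10 or more genes held 189. The densest of them was the cluster at chr1:158398522-158840396, from OR10T2 to OR6N2 with 13 genes, at 8.11 peaks per Mb and library. Its counts were 13, 1 and 2 for Naive, 3, 3 and 1 for BDNF and 7, 2 and 1 for BDNF+Dox, so Naive replicate 1 and BDNF+Dox replicate 1 gave 20 of its 33 peaks. The 1 Mb bin that holds this cluster had 49 peaks over the 9 libraries, at percentile 97.3 of all bins.

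The cluster at chr1:247449118-248702766, from OR2B11 to OR14I1 with 43 genes, had 11, 4 and 6 peaks for Naive, 4, 5 and 6 for BDNF and 6, 5 and 1 for BDNF+Dox. The other cluster of 43 genes, chr11:55554469-56748697 from OR4C15 to OR9G4, had 9, 5 and 8 for Naive, 2, 1 and 6 for BDNF and 8, 1 and 0 for BDNF+Dox. Both showed overlapping ranges in all groups.

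Class I receptors filled 3 of these clusters, all on the short arm of chromosome 11. The cluster at chr11:4367263-5200682 (26 genes) had 5, 3 and 9 peaks for Naive, 3, 2 and 2 for BDNF and 5, 1 and 0 for BDNF+Dox. The cluster at chr11:5726472-6200186 (18 genes) had 3, 2 and 4 for Naive, 4, 3 and 4 for BDNF and 2, 1 and 1 for BDNF+Dox, and here all 3 BDNF libraries exceeded all 3 BDNF+Dox libraries. The class I cluster between them, chr11:5301014-5581884 (11 genes), had 4 peaks in all, 3 of them in BDNF replicate 1, and was the sparsest of the 9 at 1.53 per Mb and library.

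Class II receptors filled the other clusters of the long arm. The cluster at chr11:58023881-58508105, from OR9Q1 to OR5B21 with 13 genes, had 3, 6 and 3 peaks for Naive, 3, 0 and 1 for BDNF and 2, 2 and 0 for BDNF+Dox. The cluster at chr11:124183345-124571374, from OR10D3 to OR8A1 with 11 genes, had 3, 3 and 3 for Naive, 3, 2 and 1 for BDNF and 1, 2 and 2 for BDNF+Dox. In both, all 3 Naive libraries lay above all 3 BDNF+Dox libraries and shared a value with a BDNF library. Counts per cluster, here and for the class I clusters, are not scaled to the total peaks of the library. How often other stretches of the genome separate in this way was not counted. The cluster at chr11:123753580-124041325, from OR6X1 to OR10G7 with 11 genes, had 1, 2 and 2 for Naive, 2, 1 and 2 for BDNF and 3, 1 and 0 for BDNF+Dox, and the groups overlapped. Only 1 of its genes had a library peak in its own window. The exact permutation test over 3 groups, run on all 2862 bins of 1 Mb with a peak, gave no Benjamini-Hochberg adjusted p under 0.05 and 99 bins with an unadjusted p under 0.05. None of the 18 tested bins that hold receptor genes was among the 99. With 3 libraries per group, adjustment over 2862 bins can pass only where many bins reach the smallest possible p.

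**Figure D3:**
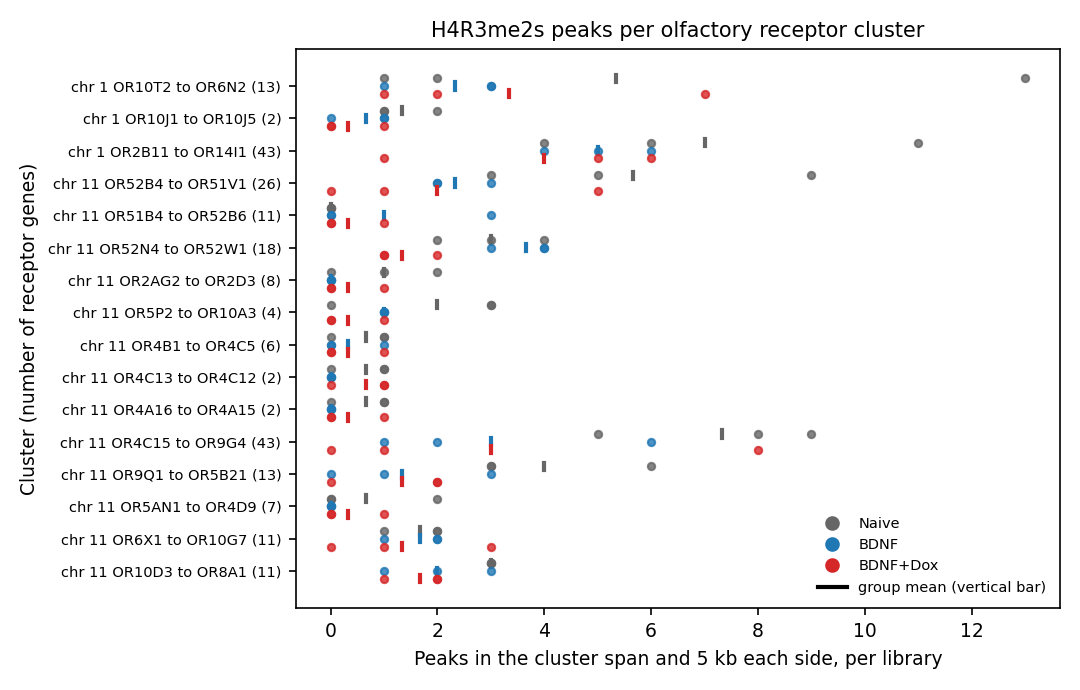
Peaks per library in the 16 receptor clusters of chromosomes 1 and 11 (points: libraries, coloured by group; vertical bars: group means of 3). In most clusters the groups overlap, and the cluster from OR10T2 to OR6N2 has a single Naive library at 13 peaks.

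No receptor gene passed the test between the groups after adjustment, which this design could hardly allow. The exact permutation test of peak counts over the 3 groups was run on the 8095 protein-coding genes with a peak, and 0 genes (0%) had a Benjamini-Hochberg adjusted p under 0.05. At an unadjusted p under 0.05 it held 68 genes (0.84%), among them 1 of the 92 receptor genes tested. The smallest p this design allows is 0.00357, and with 3 libraries against 3 it is 0.1. Adjusted over 8095 genes, a p at that floor passes only if many genes share it. Of the 92 receptor genes, 56 had a peak in 1 library only, where no small p can be reached. The lack of passing genes therefore does not show that the groups were alike. Peaks in all 3 libraries of a group and in none of another were found at 2 receptor genes, OR13G1 and OR10D3 (0.873%, against 1.05% of all genes for any pair of groups). No receptor gene had peaks in every Naive library and in none of BDNF (0.292% of all genes) or in none of BDNF+Dox (0.156%), or in every BDNF+Dox library and in none of Naive (0.267%). Both genes were picked with these results known, so the values that follow describe them.

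OR13G1, a class II receptor on the minus strand at chr1:247670812-247679739, had 1 peak in each BDNF library and none in any Naive or BDNF+Dox library. The exact permutation p over the 3 groups was 0.0357, and 1 after Benjamini-Hochberg adjustment over all genes. All 3 peaks lay beyond the end of the gene where transcription stops, and none touched the gene. In BDNF replicate 1 the peak at chr1:247669300-247669508 began 1304 bp beyond the gene, was 11 fragments high, and had a fold of 4.85 and a −log10 p of 6.52, the highest of all peaks in receptor windows. In BDNF replicate 2 the peak at chr1:247669316-247669468 lay 1344 bp beyond the gene and was 5 fragments high, with a fold of 2.69. Its summit, 10322 bp from the transcription start, fell on the same base as that of replicate 1. In BDNF replicate 3 the peak at chr1:247668748-247668949 lay 1863 bp beyond the gene and was 7 fragments high, with a fold of 3.47, and did not overlap the others. A peak in all 3 BDNF libraries and in no Naive library was seen at 1 receptor gene and at 0.0907% of all genes, and the same against BDNF+Dox at 1 receptor gene and 0.0756% of all genes. With gene spans alone, OR13G1 no longer had a peak in every BDNF library. The same held with peaks of a −log10 p of 3 or more, since that of BDNF replicate 2 was at 2.08.

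The neighbours of OR13G1 did not share this pattern. OR14L1, on its left, had 1 peak in Naive replicate 3, BDNF replicate 1 and BDNF replicate 2, and those of Naive replicate 3 and BDNF replicate 1 overlapped. OR6F1, on its right, had 2 peaks in Naive replicate 1 and 1 each in BDNF replicate 1 and BDNF+Dox replicate 2. OR14A2, further right, had 1 peak in Naive replicate 1 and 1 in BDNF replicate 3. BDNF replicate 1 thus had a peak at 3 of these 4 genes, and Naive replicate 2 and BDNF+Dox replicates 1 and 3 at none.

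OR10D3, a class II receptor on the plus strand at chr11:124183345-124188780, had 1 peak in each BDNF+Dox library, 1 in Naive replicate 1 and none in the other libraries. The exact permutation p was 0.143, and 1 after Benjamini-Hochberg adjustment. The BDNF+Dox peaks ended 4478, 4551 and 4409 bp upstream of the gene and were 8, 6 and 6 fragments high, with folds of 3.69, 3.07 and 3.29. They merged into chr11:124178589-124178936, the only region in receptor windows that 3 libraries shared. The peak of Naive replicate 1 lay elsewhere, 2814 bp upstream, and was 6 fragments high. All 3 BDNF+Dox libraries with a peak and no BDNF library with one was seen at 1 receptor gene and at 0.408% of all genes. With windows of 2 kb, OR10D3 had no peak in any library. With peaks of a −log10 p of 3 or more it lost that of BDNF+Dox replicate 2, at 2.87, and with equal peak numbers it kept 1 peak in all. In the authors' deposited table of BDNF+Dox over BDNF a narrow peak at chr11:124178712-124178931 overlapped the peaks of all 3 BDNF+Dox libraries, with a fold of 2.89 and a q of 0.716. In the authors' deposited table of BDNF+Dox over Naive the peak at chr11:124178693-124178874 had a fold of 2.202 and a q of 1. Both tables were made from the same BDNF+Dox reads.

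**Figure D4:**
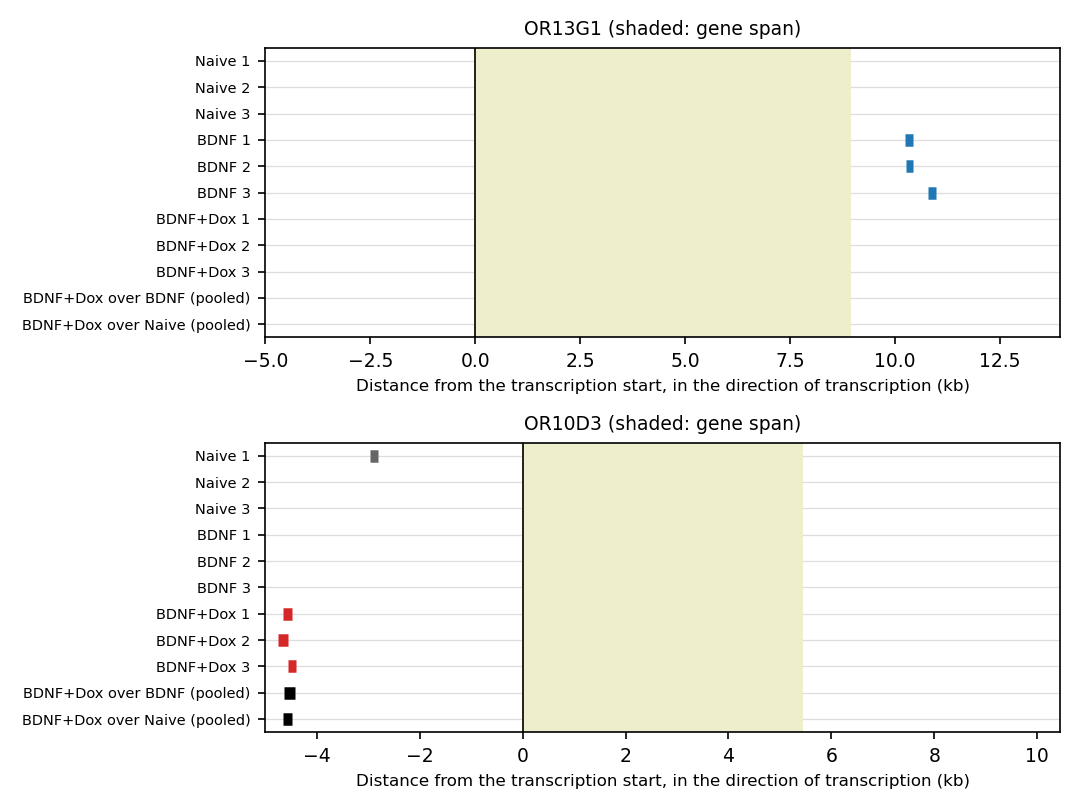
Position of each peak in the windows of OR13G1 and OR10D3, in kb from the transcription start in the direction of transcription, for the 9 libraries and the 2 pooled narrow lists (shaded: gene span). The OR13G1 peaks stand only in the BDNF libraries beyond the end of the gene, and the BDNF+Dox peaks of OR10D3 end 4409 to 4551 bp before its start.

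The other receptor genes with peaks in 3 or more libraries had them in mixed groups. OR2L13, with a window of 173987 bp, had peaks in 6 libraries: 3, 1 and 1 for Naive, 1, 0 and 0 for BDNF and 1, 1 and 0 for BDNF+Dox. OR9Q1, with a window of 167736 bp, had 1, 4 and 1 for Naive, 1, 0 and 0 for BDNF and 1, 0 and 0 for BDNF+Dox. Both had a peak in all 3 Naive libraries, and both overlapped the other groups. The 4 peaks of OR9Q1 in Naive replicate 2 had folds of 3.74, 4.08, 2.81 and 3.27 and all lay inside the gene span. OR6P1, with a shorter window of 19975 bp, had peaks in 5 libraries: 1, 0 and 1 for Naive, 0, 0 and 1 for BDNF and 1, 1 and 0 for BDNF+Dox. Those of Naive replicates 1 and 3 overlapped inside the gene.

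OR4C12, a class II receptor, had peaks in Naive replicates 1 and 3 that overlapped 3982 and 4081 bp upstream, and another in BDNF+Dox replicate 3. OR52N4, a class I receptor, had 1 peak in Naive replicate 1 and BDNF replicates 1 and 2, and the first pair overlapped. OR56A3, also class I, had 3 peaks in BDNF replicate 3 and 1 each in Naive replicate 1 and BDNF+Dox replicate 1. OR10J1 had peaks in Naive replicates 1 and 3 and BDNF+Dox replicate 2. OR6K3, OR6N1 and OR2L5 each had a peak in 1 library of every group. The exact permutation p of the genes in these paragraphs, other than OR13G1 and OR10D3, ran from 0.214 for OR9Q1 to 1, and every Benjamini-Hochberg adjusted p was 1. OR2L5 lies within the window of OR2L13, and its peaks are counted for both genes.

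**Figure D5:**
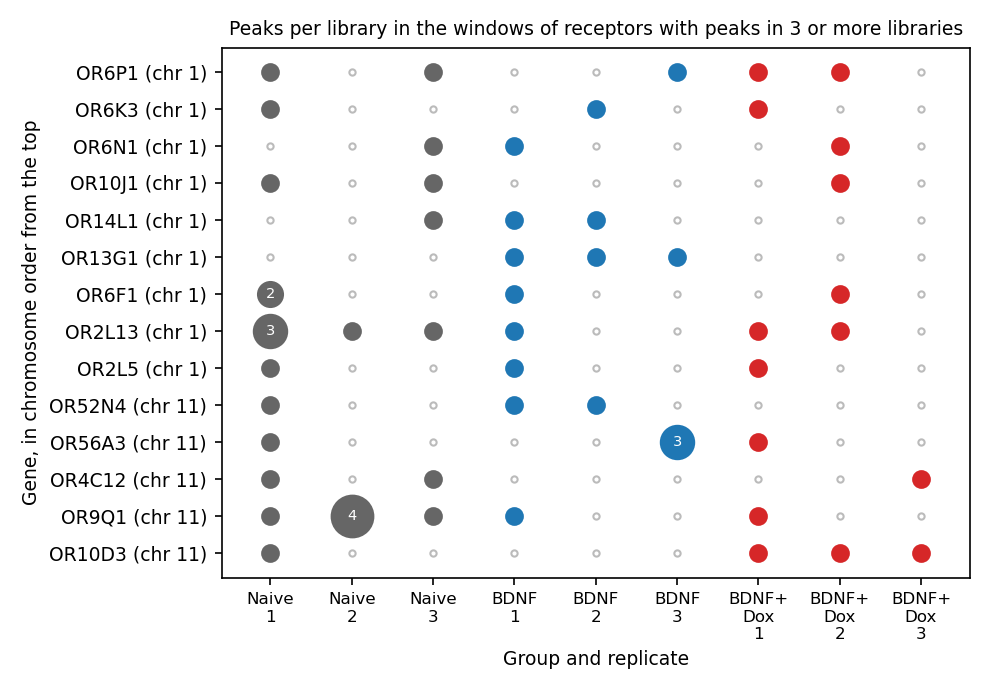
Peaks in the window of each receptor gene with peaks in 3 or more libraries (filled circles, coloured by group, larger where a library had more than 1 peak, with the number; small open circles: none). OR13G1 is filled in the 3 BDNF libraries alone, and OR10D3 in the 3 BDNF+Dox libraries and Naive replicate 1.

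After the peak of OR13G1, which overlapped one of BDNF replicate 2, the strongest peaks were each found in 1 library. The next highest −log10 p was 6.16 near OR6K3 in BDNF replicate 2, with the highest fold of 4.92. A peak shared by the overlapping genes OR51E2 and OR51C1 in BDNF+Dox replicate 2 followed at 5.80. OR51E2 is a class I receptor also known for its expression in prostate. OR14C36 in Naive replicate 1 followed at 5.76 with a fold of 4.49.

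In the pooled calls, where the authors merged the libraries of each group, receptor windows were covered less often than gene windows in general, which are longer. The authors' deposited table of BDNF+Dox over BDNF had narrow peaks at 14 receptor genes (6.11%, against 16% of all genes) and broad peaks at 28 (12.2%, against 27.9%). The authors' deposited table of BDNF+Dox over Naive had narrow peaks at 9 (3.93%, against 14.3%) and broad peaks at 16 (6.99%, against 25.8%). At like window length the authors' deposited table of narrow peaks over BDNF covered 5 of 117 receptor genes (4.27%, against 2.57%), and that over Naive 6 of 117 (5.13%, against 2.47%). No receptor gene had a q of 0.05 or less in the authors' deposited table of either comparison (0.131% and 0.222% of all genes had one). Per Mb, the authors' deposited table of narrow peaks gave receptor windows 0.871 times the density of chromosomes 1 and 11 over BDNF, and 0.569 times over Naive. Against the flanks of the clusters the ratios from the authors' deposited table were 1.67 and 0.797, against the rest of the clusters 0.897 and 1.26, against the genome 1.07 and 0.719, and against receptor windows of other chromosomes 1.86 and 0.716. These lists show only where BDNF+Dox had more signal, and lists of the opposite direction were not used here.

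The smallest q in the authors' deposited table of BDNF+Dox over BDNF was 0.486, at OR9Q2, for a peak 1246 bp upstream with a fold of 3.46. OR6N1 followed in that authors' deposited table with a q of 0.496 and a fold of 3.22, inside the gene span. OR10D3, OR51A2 and OR5L1 came next in the authors' deposited table, with q-values of 0.716, 0.827 and 0.906. OR14A2, OR10A2, OR10A4, OR8U1 and OR6X1 had a q of 1 in the authors' deposited table, and OR10A2 and OR10A4 share a peak. In the authors' deposited table of BDNF+Dox over Naive all 9 genes had a q of 1: OR8B2 and OR8B3 (a shared peak with a fold of 3.01), OR5B21, OR9Q2, OR10A2, OR10A4, OR10D3, OR8J3 and OR8K1. OR9Q2, OR10A2, OR10A4, OR51A2, OR5L1, OR6X1, OR5B21, OR8J3 and OR8K1 had no peak in any single library.

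The genes that act with the receptors were also without differences that passed the test. Windows in both lists were longer than over all genes (median 34.5 kb), with medians of 89.7 kb for olfactory signalling and 53.8 kb for receptor choice and olfactory chromatin. Of 18 genes of olfactory signalling, 8 had a library peak, beside 40.8% of all genes, and 0 passed the exact permutation test before or after Benjamini-Hochberg adjustment, with a median of 0 peaks per gene, as over all genes. PDE1C, a phosphodiesterase that degrades cyclic AMP, held most of them in a window of 821448 bp, with 12, 2 and 2 peaks for Naive, 4, 2 and 4 for BDNF and 3, 4 and 4 for BDNF+Dox. GNAL had 1, 1 and 0 for Naive, 0, 0 and 1 for BDNF and 1, 0 and 0 for BDNF+Dox, and ADCY3 had 1 peak, in Naive replicate 3. Of 20 genes of receptor choice and olfactory chromatin, 11 had a library peak and 0 passed, with a median of 1 peak per gene. EBF1, which binds the CCCNNGGG site, had 0, 0 and 1 for Naive, 0, 2 and 0 for BDNF and 3, 1 and 1 for BDNF+Dox. LHX2 had no peak. ATRX, a chromatin remodeller, had 1 peak in each Naive library, none in BDNF and 1 in BDNF+Dox replicate 3. Its exact permutation p was 0.143, and 1 after Benjamini-Hochberg adjustment. The window of ATRX was 291337 bp, and peaks in every Naive library and in none of BDNF were seen at 0.292% of all genes.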

How the data were processed

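Peak lists of H4R3me2s ChIP-seq were used for 9 SH-SY5Y libraries, 3 per group, and 1 shared Input. The submitters' processing notes name Trimmomatic 0.32, cutadapt 1.1, Bowtie with no version, MACS2 2.2.7.1 and the build GRCh38. Narrow peaks of every library were called against the Input with a p threshold of 0.01, per the file headers, and merged BDNF+Dox over merged BDNF and over merged Naive as narrow and broad peaks. The deposited files give each peak's length, pileup signal, −log10 p-value, −log10 q-value and fold enrichment, a ratio to local background. Without reads per region, no intervals were computed. Summit pileup divided by the headers' scale factor was whole within 0.05 for 100% of peaks and was read as fragments.

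Genes and starts came from RefSeq (GRCh38.p14). Windows were the span and 5 kb each side. Peaks on chromosomes 1 to 22 and X were used. Python 3.11.15 with numpy 2.4.6 and pandas 2.3.3 counted overlaps and ran exact permutation tests of the F ratio over all 1680 assignments to 3 groups, adjusted over all genes or bins, which were tested on simulated data. Genes named are those with peaks in 3 or more libraries, with peaks in every library of 1 group but in none of a second group, with the 10 smallest q-values in each pooled narrow list or with the 5 strongest library peaks, and always OR13G1 and OR10D3. EBF1, LHX2, GNAL, ADCY3, PDE1C and ATRX come from lists of pathway genes and were picked from them by role or by value. The genes and lists were chosen with earlier results of these data known. Alternatives were other windows, stricter p, equal peak numbers, peaks per 1000 and leaving out each library.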

Additional observations from a re-analysis of the deposited data

How the results depend on the processing

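Gene spans alone left 38 receptor genes with a library peak (92 with 5 kb), 0 genes with peaks in every library of 1 group but in none of a second group (2 with 5 kb), and 5 and 2 genes in the pooled narrow lists over BDNF and over Naive (14 and 9 with 5 kb). Windows of 2 kb left 1 gene of that all-or-none kind, OR13G1, and 9 in the list over BDNF, and windows of 10 kb gave 23 and 14 in the 2 lists. The broad lists gave 28 and 16. Peaks with a −log10 p of 5 or more left 13 genes with a library peak, 0 all-or-none genes, 1 and 0 genes in the pooled lists, a ratio of 3 for BDNF over Naive, 1.43 for BDNF+Dox over Naive per 1000 peaks, and an exact permutation p of 1 for OR13G1. At a −log10 p of 3 or more OR13G1 and OR10D3 both lost the pattern, and the 1 all-or-none gene was OR2L13. Equal peak numbers gave 1, OR13G1, with 1.097 for BDNF over Naive and 0.806 for BDNF+Dox over Naive per 1000 peaks. Per 1000 peaks the exact permutation p of OR10D3 was 0.0357. Neighbours up to 500 kb apart gave 15 clusters and single genes in place of 25.

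Leaving out each library gave 2 to 7 all-or-none genes, the most without Naive replicate 2. A left-out library makes the rule easier for its group, so this count could only stay at 2 or rise. The range is therefore no measure of stability. Without Naive replicate 1, or without BDNF replicate 1 or 3, there were 4. The exact permutation p of OR10D3 then ran from 0.0357, without Naive replicate 1, to 0.229. BDNF+Dox over BDNF ran from 0.563 to 1.16. In every alternative run, 0 genes passed the exact permutation test after Benjamini-Hochberg adjustment. These runs are limited in the same way by sparse counts and a floor on p. Unadjusted, 68 genes passed, 112 with peaks per 1000, 66 with gene spans alone, 5 with a −log10 p of 5 or more, and 99 to 194 without each library.

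Same-numbered libraries had correlations of their deviations from -0.0743 to 0.0598, none of 9 over 0.1, and libraries of other numbers from -0.0744 to 0.0494. With 97.6% of all regions in a single library, such values cannot decide whether the replicate numbers pair the libraries. With the replicate number as a block, 0 genes passed after adjustment and 5 before it, and the exact permutation p was 0.111 for OR13G1 and 0.222 for OR10D3. Peaks of 5 to 11 fragments limit what these libraries can show at a single gene, and a gene without a peak may still carry the mark. Of 480 peak counts of named genes under the alternatives, 411 were within 1.5 times of the reported count. These include genes that had 0 library peaks and stayed at 0. They also include runs that left out a library without a peak at the gene, which cannot change the count. The share is therefore no measure of how stable the counts are.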
